A study of Mus musculus with 8 samples.

Results

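The 35 cadherin and protocadherin loci described here comprise every mouse protein-coding gene of the annotation whose symbol is Cdh with a number or begins with Pcdh, apart from 1 cadherin gene that was not used here. They hold 91 of 21951 protein-coding genes. Of these, 34 are single genes (22 Cdh and 12 Pcdh), and the 57 Pcdha, Pcdhb and Pcdhg genes, which lie next to each other, were treated as 1 locus, so that 35 of 21895 loci were studied. The assay was chromatin immunoprecipitation and sequencing (ChIP-seq) of 3 NFI transcription factors, NFIA, NFIB and NFIX, in progenitors of granule neurons from the postnatal day 7 cerebellum. Each factor was profiled in 1 library from CD1 mice and 1 library from mice of a mixed background, which the labels liken to outbred CD1. The design text names CD1 mice only, so the Mixed background rests on the sample labels. No mutation, transgene or treatment is named for any library. The antibodies came from Abcam (ab41851) for NFIA and from Sigma Aldrich (SAB1401263) for NFIX. The NFIB reagent is not settled, since it is a Novus Biologicals product in the sample labels and a Sigma product (HPA003956) in the design text. The 2 input samples were not analysed here. Peak lists carry no expression values, so the labelled cell type could not be checked against its marker genes.

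Cadherins are membrane proteins that join cells through calcium-dependent binding of like molecules, and their cytoplasmic tails bind catenins, which tie the junction to actin. Protocadherins share the extracellular repeats but not the catenin-binding tail, and they act in cell recognition, axon sorting and dendrite self-avoidance. In the young cerebellum, granule neuron progenitors divide in the outer layer, leave the cell cycle, extend parallel fibres and migrate inward. NFI proteins bind DNA as dimers at a palindrome, TTGGC, 5 bases of any kind and GCCAA, or more weakly at a single element such as TTGGCA, and are known for roles in this maturation.

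Sequences could be read only where RefSeq promoter windows or transcripts covered a peak. Of the 34 single genes, 22 had promoter windows of 300 bp (250 bases before the transcription start and 50 after it, RefSeq on GRCm38.p6), 25 windows in all. Peaks covered 9 of these windows, at 7 genes. The 3 promoters below are different cases. That of Pcdh15 has a peak of 5 libraries. That of Pcdh10 has a weak peak of 3 libraries (folds 2.47 to 3.49), beside a separate region with peaks in all 6. That of Cdh20 holds TTGGCA and a peak of only 1 library. Each is the 250 bases before the start, read along the gene's strand, with TTGGCA or its reverse complement in capitals.

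Pcdh15, chr10:73821617-73821866, plus strand: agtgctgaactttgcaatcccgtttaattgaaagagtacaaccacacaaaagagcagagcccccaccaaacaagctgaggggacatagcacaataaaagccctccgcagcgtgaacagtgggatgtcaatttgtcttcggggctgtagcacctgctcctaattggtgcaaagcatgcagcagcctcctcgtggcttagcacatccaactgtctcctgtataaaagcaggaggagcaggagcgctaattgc

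Pcdh10, chr3:45378148-45378397, plus strand: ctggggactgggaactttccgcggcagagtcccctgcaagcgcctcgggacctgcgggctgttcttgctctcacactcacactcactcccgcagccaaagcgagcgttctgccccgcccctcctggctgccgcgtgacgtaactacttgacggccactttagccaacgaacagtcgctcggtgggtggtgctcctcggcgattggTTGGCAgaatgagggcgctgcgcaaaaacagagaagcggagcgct

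Cdh20, chr1:104768270-104768519, plus strand: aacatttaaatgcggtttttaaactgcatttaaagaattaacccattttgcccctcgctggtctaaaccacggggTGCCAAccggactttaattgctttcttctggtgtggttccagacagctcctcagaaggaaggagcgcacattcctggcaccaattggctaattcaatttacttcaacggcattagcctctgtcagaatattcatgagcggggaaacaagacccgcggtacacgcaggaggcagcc

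Of the member regions, 7 overlapped a coding exon. Stretches of 30 bases around TTGGCA are shown from 1 at a further start of Cdh7 and 1 inside Cdh18. They were chosen after their values were seen.

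Cdh7, chr1:109993993-109994022, plus strand: ttaggccattccTTGGCAacggctactcag

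Cdh18, chr15:23446004-23446033, plus strand: taaagatgacttTGCCAAtggaccgagatt

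Cdh18, chr15:23446190-23446219, plus strand: acagcttgcaaaTTGGCActcaaactcaat

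The Pcdh10 element begins 45 bases before the start, and the Cdh20 element, on the opposite strand, 175 bases before it. The Pcdh15 stretch has no TTGGCA on either strand. Its E-box CAGCTG, an element read by neural bHLH factors, begins 8 bases past the start and is not shown. The Cdh7 element lay 40 to 92 bp from the peak summits of 4 libraries. Of the Cdh18 elements, one lay 20 to 54 bp from the summits of 5 libraries and the other 132 to 220 bp from them. TTGGCA, on either strand, was found in 7 of the 25 member windows (28.0%) and in 4640 of all 32851 RefSeq windows (14.1%). It was in 4 of the 9 windows under a peak, those of Cdh20, Pcdh10, Cdh8 and one start of Cdh7. The share among all RefSeq windows under a peak was not counted, so this count has no like comparison. The 9 windows belong to 7 genes, and those of Pcdh9 overlap almost fully. The NFI palindrome was in 0 of the 25 and in 12 of all windows (0.0365%), too few for a comparison. The E-boxes CAGCTG and CAGATG were in 3 (12%) and 2 (8%) of the member windows, against 16.3% and 17.2% of all. In exons, 25 peak summits at 9 of the loci had a 101 bp window inside 1 exon, and 9 of those windows held TTGGCA. Over all loci 1960 of 8082 such windows did (24.3%). Only the windows of Cdh7, Cdh18 and Cdh23 were read in the member's own exons, and the others in exons of other annotated genes. Chromosome 18, with the clustered locus, Pcdh1 and Pcdh12, was left out of the member windows but not of the windows over all loci. Windows of different libraries overlap at one site, so these counts are not independent, and a match is a description of letters, not a binding site.

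The 6 peak lists were merged into 46070 regions, and 299 of them lay at the 35 loci, either inside a gene body or nearest to a start of a member within 100 kb. A region with a peak in all 6 libraries was called common. There were 36 common regions at these loci, of 6062 in all. Peaks were present at 29 of the 35 loci (82.9%), where 48.2% of all protein-coding loci had one. A common region was present at 17 of the 35 (48.6%), against a background of 13.1% of all loci. Members are long genes. The median gene body was 123 kb at the members and 17.4 kb over all loci. Among loci of at least 100 kb, 12 of 19 members had a common region (63.2%) against 45.7% of all such loci, and 18 of 19 had any region against 89.7%. Among loci of at least 500 kb, a limit chosen after the values were seen, 6 of 7 members had a common region (85.7%) against 83.5%. Below 100 kb, 5 of 16 members had a common region (31.2%) against 8.97%, and 11 of 16 any region against 42.9%. Those 5 were Cdh5, Cdh17, Pcdh10, Pcdh12 and Pcdh20, and these shorter members were still longer than other short loci, with median bodies of 34.5 and 14.2 kb. At least 10 regions were found at 9 of the 19 long members, and at 25.7% of all long loci.

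Per length, the region density of member bodies was close to that of other genes. They held 22.3 regions per Mb, the same as the 22.3 per Mb of all protein-coding bodies and below the 24.4 per Mb of bodies of at least 100 kb. Common regions had densities of 2.74, 2.64 and 3.21 per Mb in these sets. Of the 19 long members, 9 exceeded the median density of long loci (19.2 per Mb). Single members ranged from none to 72.2 regions per Mb.

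**Figure D1:**
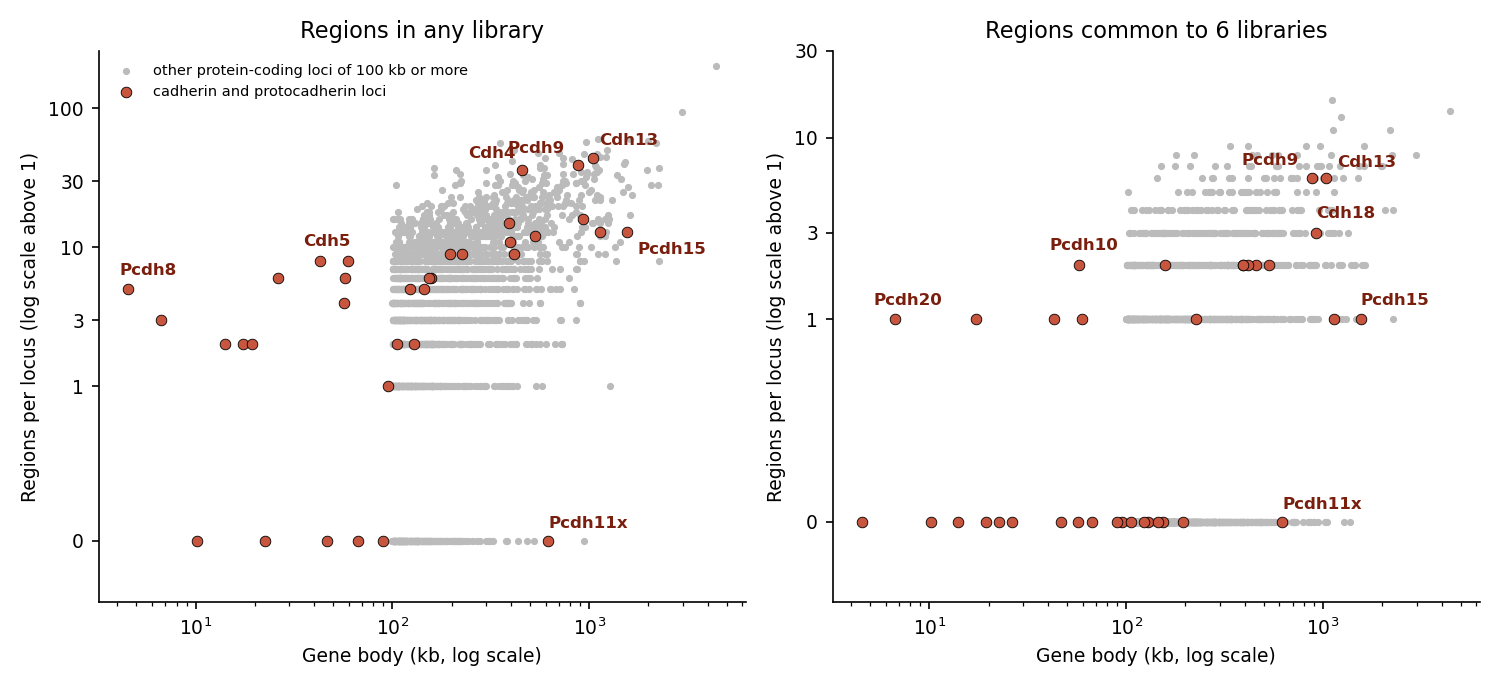
Regions assigned to a locus (left, any library; right, common to 6 libraries) against gene body length in kb on a log scale. Red points are the 35 cadherin and protocadherin loci and grey points the other protein-coding loci of at least 100 kb; Cdh13, Pcdh9 and Cdh4 sit high for their length, while Pcdh15 (13 regions in 1550.4 kb) and Pcdh11x (0 regions) sit low.

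In the single libraries the members held 108 of the 16993 NfiA CD1 peaks (0.636%, 95% Wilson interval 0.527 to 0.767) and 133 of the 23541 NfiA Mixed peaks (0.565%, 0.477 to 0.669). For NFIB the numbers were 236 of 36431 (0.648%, 0.570 to 0.736) in CD1 and 209 of 33283 (0.628%, 0.549 to 0.719) in Mixed. For NFIX they were 43 of 7497 (0.574%, 0.426 to 0.772) and 144 of 21443 (0.672%, 0.571 to 0.790). All 6 intervals overlap, and the mean was 0.620% ± 0.042 (SD, n = 6 libraries). Intervals cover counting error only. With 2 libraries per factor no exact test between factors can reach 0.05. By the labels, the CD1 and Mixed libraries come from mice of different backgrounds. Nothing in the labels says that libraries of the same background came from separate animals. The spread thus mixes factor and background, and part of it may be technical. The density of peaks in member bodies relative to all bodies was −0.03 ± 0.12 on the log2 scale (SD, n = 6), from −0.23 in NfiA Mixed to 0.08 in NfiA CD1. Its sign was not stable: with 7497 peaks taken from every list it was 0.14 ± 0.12, and without NfiA Mixed it was 0.0085. Relative to long bodies it was −0.23 ± 0.10, below 0 in 6 of 6 libraries. Fold enrichment, the authors' ratio at each peak's summit, was ordinary at the median only. The median member peak stood at percentile 51.0 ± 2.8 of its own list (SD, n = 6), from 48.6 in NfiX Mixed to 55.2 in NfiX CD1. Peaks above percentile 90 made up 14.9% ± 2.6 of the member peaks (SD, n = 6), more than that percentile leaves by definition. The range was from 12.3% in NfiB CD1 to 19.5% in NfiA Mixed, and it was not tested.

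The number of loci with a peak went with list length. NfiA peaks were present at 25 members in CD1 (26.2% of all loci had one) and at 28 in Mixed (33.8%). NfiB peaks were at 29 members in CD1 (41.8%) and 29 in Mixed (40.9%), and NfiX peaks at 17 in CD1 (15.4%) and 27 in Mixed (30.9%). The short NfiX CD1 list set the count of common loci: its 17 members were the 17 with a common region. Without that library 24 members and 68 regions had a peak in all of the other 5, and 21.2% of all loci did. The loci gained were Cdh6, Cdh10, Cdh22, Cdh26, Pcdh8, Pcdh18 and Pcdh19. No region at these loci was found in both NFIA libraries alone or both NFIX libraries alone, patterns held by only 0.0803% and 0.122% of all regions. Both NFIB libraries alone held 27 of the 299 (9.03%), against 9.73% of all regions. Common regions made up 12.04% of the members' regions and 13.2% of all. Other patterns differed more, on small counts. NfiA CD1 alone held 6 member regions (2.01%, against 0.870% of all regions), NfiA Mixed alone 2 (0.669%, against 2.07%) and NfiX Mixed alone 13 (4.35%, against 2.69%). Regions in 3 libraries made up 16.7% and 12.5%. None of these differences was tested.

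**Figure D2:**
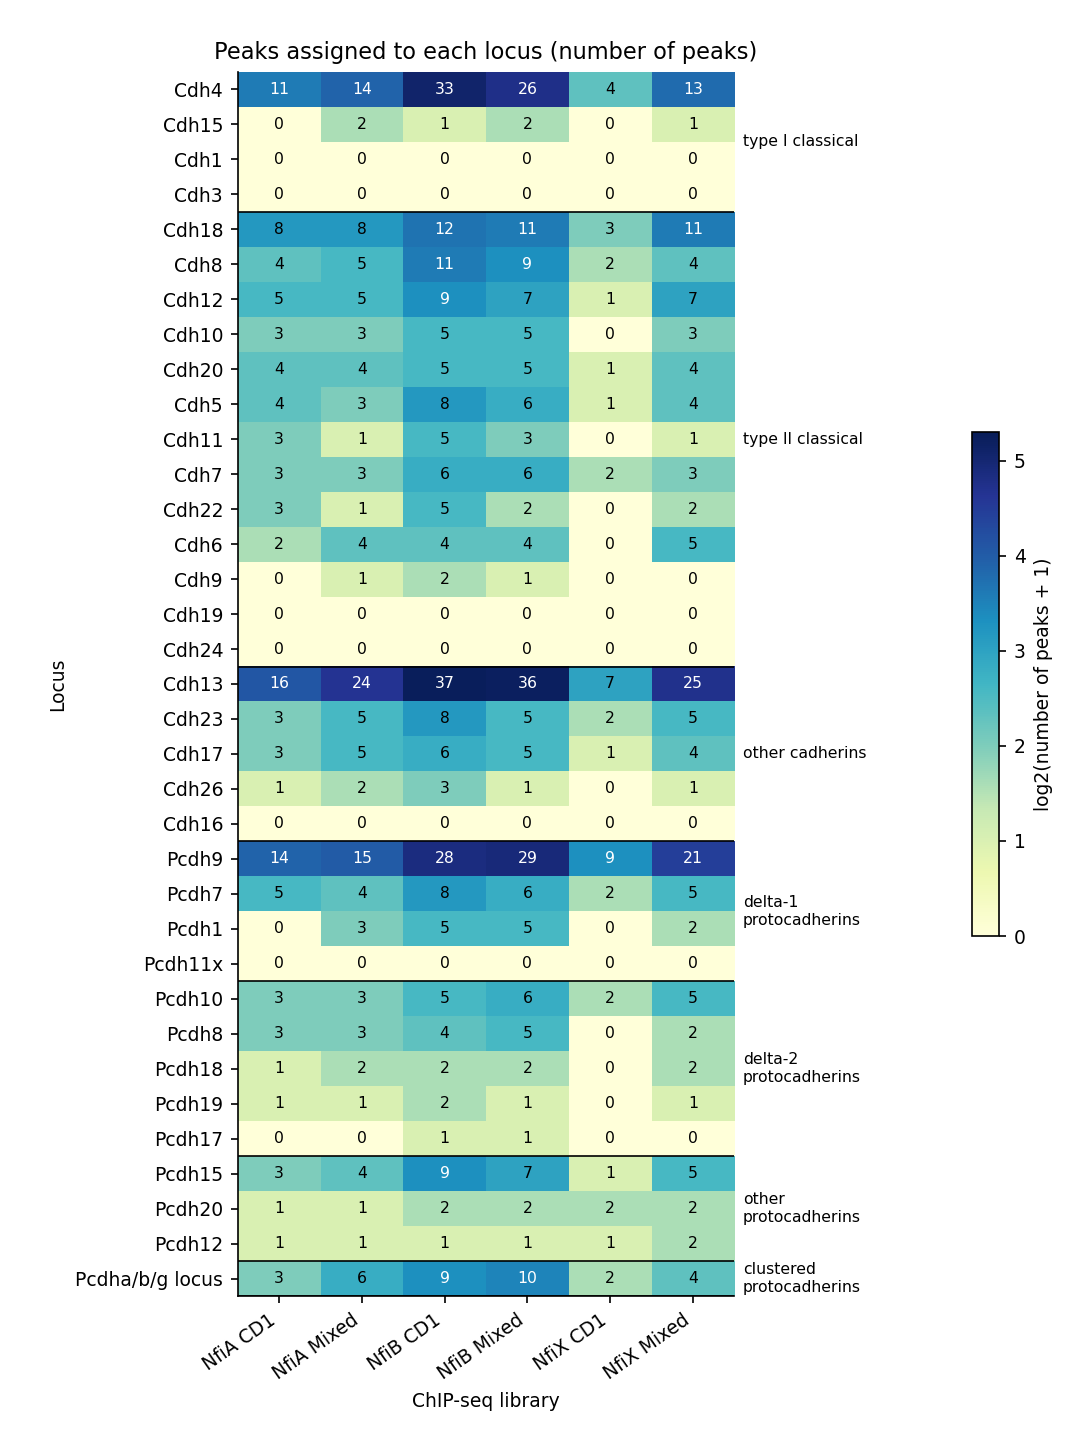
Number of peaks in each of the 6 libraries (columns) at each of the 35 loci (rows, grouped by structure), with the colour on a log2(number + 1) scale. Cdh13, Pcdh9 and Cdh4 have the most peaks in all 6 libraries, and NfiX CD1 has none at 12 loci that have peaks in other libraries.

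The type I classical cadherins, which build strong adhesive junctions, were divided. Cdh4 (R-cadherin), found in brain and retina, had 36 regions in and around a body of 456.9 kb. That was 72.2 regions per Mb of body, percentile 96.3 of long loci. The counts were 11 and 14 peaks in NfiA CD1 and Mixed, 33 and 26 in NfiB and 4 and 13 in NfiX. Its second intron, 335.4 kb long, held 23 of the 36 regions, or 68.6 per Mb. Yet only 2 were common, both in that intron, and the NfiB lists gave the most peaks. The better one (chromosome 2, 179769134 to 179769490) had folds of 9.98 and 7.84 in NfiA CD1 and Mixed, 12.8 and 9.31 in NfiB, and 6.07 and 8.32 in NfiX. Cdh15 (M-cadherin of muscle) had 2 regions, each of 3 libraries, inside a stretch also annotated to Gm20388. Cdh1 (E-cadherin of epithelia) and Cdh3 (P-cadherin) had none in any library.

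Type II classical cadherins, which mark neuronal nuclei and layers, had 94 regions and 10 common regions at 13 loci. Regions were found at 11 of them and common regions at 6: Cdh18 (3), Cdh7 (2), Cdh8 (2), Cdh12, Cdh20 and Cdh5 (1 each). The density over their bodies was 18.2 regions per Mb. The highest-ranked common region of the whole family was in the body of Cdh18, 177.7 kb past the nearest start (chromosome 15, 22726330 to 22727130). Its folds were 24.8 and 25.6 in NfiA CD1 and Mixed, 34.8 and 31.2 in NfiB, and 18.7 and 31.8 in NfiX, and summits of the 6 libraries lay within 51 bp. On average it stood at percentile 99.7 of the lists. A further common Cdh18 region, 168.8 kb past the same start, had a mean percentile of 65.8, so neighbouring sites of one gene differed widely.

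At the other end of Cdh18, 9 regions lay within 61.3 kb. Among them, intron 10, of 14.2 kb, held 6. The printed pair of Cdh18 elements lies there, in a region over a coding exon of another transcript that had peaks in 5 libraries. Its folds were 11.1 and 9.02 in NfiA CD1 and Mixed, 15.0 and 15.0 in NfiB and 7.99 in NfiX Mixed, with no peak in NfiX CD1. The last of the 6 (chromosome 15, 23457322 to 23457885) was also missing from NfiX CD1 alone and reached a fold of 18.9 in NfiB Mixed.

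Cdh7, a cadherin of hindbrain neurons, had 6 regions, all with at least 2 libraries. The common region 49.6 kb upstream of its start (chromosome 1, 109932542 to 109933139) had folds of 29.2 and 22.8 in NfiA CD1 and Mixed, 34.1 and 35.2 in NfiB, and 13.7 and 22.9 in NfiX. The other, 33.6 kb upstream, had folds of 3.66 to 8.66 only. The region of the printed Cdh7 element (chromosome 1, 109993919 to 109994316), 0.135 kb past one of the gene's starts and over a coding exon, had folds of 10.03 to 12.7 in NfiA Mixed, both NfiB libraries and NfiX Mixed. Neither NfiA CD1 nor NfiX CD1 had a peak there.

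Cdh8 had 15 regions and 2 common ones, in introns 2 and 8. The better (chromosome 8, 99393815 to 99394459), 22.3 kb into the gene, had folds of 10.8 and 14.1 in NfiA CD1 and Mixed, 18.5 and 21.4 in NfiB, and 8.81 and 12.2 in NfiX. Both NfiB folds were above the other 4 there. Cdh12 spans 1140.3 kb and had 13 regions. Its common region (chromosome 15, 21003747 to 21004585) had folds from 5.61 to 24.3, a wide range for 1 site. Cdh20 had its common region 21.6 kb upstream (folds 4.62 to 10.8). Cdh5 (VE-cadherin), the junction protein of endothelium, had 8 regions, 7 of them outside its body. Its common region lay 34.2 kb upstream, with folds of 5.12 to 7.62.

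Of the type II genes without a common region, Cdh10, Cdh6 and Cdh22 each had a region in all libraries but NfiX CD1. A region in intron 1 of Cdh10 (chromosome 15, 18850397 to 18850929) had folds of 7.10 to 16.6 in the 5 libraries other than NfiX CD1. One in intron 2 of Cdh6 (chromosome 15, 13077142 to 13077846) had folds of 6.19 to 16.2 in the same 5, and one in intron 1 of Cdh22 (chromosome 2, 165183964 to 165184353) had folds of 4.39 to 7.81. These genes, and Pcdh8, Pcdh18 and Pcdh19 below, were chosen after their values were seen. Cdh11 had 6 regions with at most 4 libraries at any one, and Cdh9 had 2, both outside its body. Cdh19 and Cdh24 had no peak in any library.

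The remaining cadherins fall outside types I and II. Cdh13 (T-cadherin), which is held by a lipid anchor and has no cytoplasmic part, had the most regions of all, 44, of which 6 were common. Peaks numbered 16 and 24 in NfiA CD1 and Mixed, 37 and 36 in NfiB and 7 and 25 in NfiX. Body density was 40.3 per Mb, percentile 80.4 of long loci. Regions were spread over 9 introns, with 10 in intron 2 and 7 in intron 4. Intron 10, of 46.1 kb, held 3 of the 6 common regions, which start at 119263696, 119281727 and 119284617 on chromosome 8. The best one was in intron 5 (chromosome 8, 118961918 to 118962606), with folds of 12.4 and 11.7 in NfiA CD1 and Mixed, 17.02 and 15.4 in NfiB, and 10.4 and 17.7 in NfiX. Its nearest protein-coding start is that of Hsbp1, 382.2 kb away, so it belongs to Cdh13 by position in the body only.

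Cdh23, which forms the tip links of hair cells with Pcdh15, had 11 regions and 2 common ones, in introns 4 and 7 (folds 4.16 to 12.9). Cdh17 (LI-cadherin of intestine) had 8 regions around a body of 59.7 kb. Its common region in intron 1 (chromosome 4, 11762158 to 11762647) had folds of 7.63 and 12.4 in NfiA CD1 and Mixed, 16.5 and 10.2 in NfiB, and 8.18 and 8.58 in NfiX. Cdh26 had 4 regions, none common. Cdh16, a kidney cadherin, had none.

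**Figure D3:**
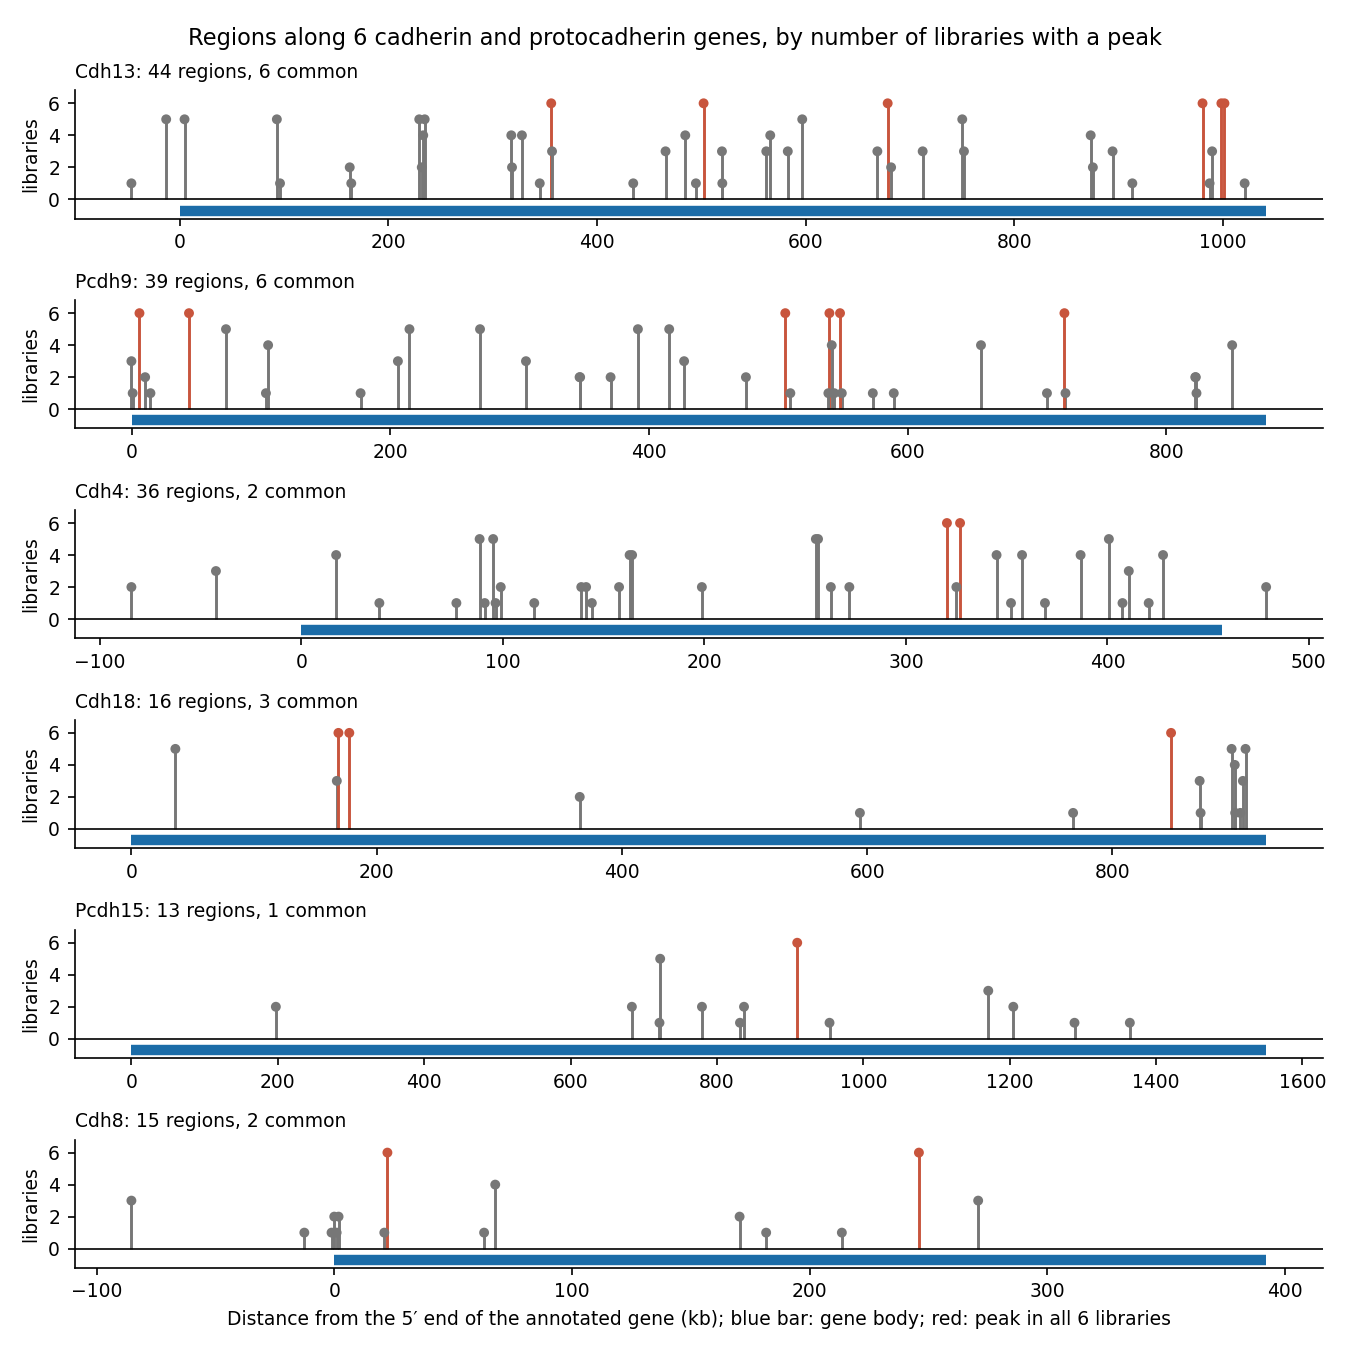
Regions along Cdh13, Pcdh9, Cdh4, Cdh18, Pcdh15 and Cdh8 by distance in kb from the 5′ end of the annotated gene (blue bar: gene body); height is the number of libraries with a peak and red marks all 6. Cdh13 and Pcdh9 each have 6 common regions. In Cdh13, 3 of them lie close together near the 3′ end, and of the 3 common regions of Cdh18 the nearest pair lies in the first part of the body and 1 lies toward its end.

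Delta-1 protocadherins, which have a longer extracellular part and a tail that binds a protein phosphatase, gave 54 regions, 39 of them at Pcdh9. Pcdh9 had 14 and 15 peaks in NfiA CD1 and Mixed, 28 and 29 in NfiB, and 9 and 21 in NfiX, the highest NfiX CD1 count of the family. With 43.3 regions per Mb it stood at percentile 82.6 of long loci. Its 3 introns held 12, 15 and 10 regions. The highest-ranked of its 6 common regions was in intron 2, 500.5 kb past the nearest start (chromosome 14, 93384993 to 93385544). It had folds of 19.1 and 23.0 in NfiA CD1 and Mixed, 38.4 and 24.0 in NfiB, and 16.7 and 19.4 in NfiX. In the same intron a common region starting at 93342709 reached only 3.88 to 6.797. Deep intronic sites of Pcdh9 thus ranged from the top of the lists to their lower part. Pcdh9, Cdh13 and Cdh4 together held 119 of the 299 regions (39.8%).

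Pcdh7 had 9 regions and 2 common ones. That 9.39 kb upstream of the start (chromosome 5, 57708251 to 57708902) overlaps the transcript 4932441J04Rik. Its folds were 7.38 and 21.5 in NfiA CD1 and Mixed, 17.8 and 21.8 in NfiB, and 8.03 and 15.7 in NfiX. The Mixed fold was higher than the CD1 fold for each factor there, as at the best common regions of Cdh8, Pcdh12, Pcdh15 and Pcdh20. The best common regions of Cdh4, Cdh7, Cdh13, Cdh17, Cdh18, Pcdh9 and the clustered locus did not show this order. How often it held over all common regions was not counted. Pcdh1 had 6 regions, all outside its body and in at most 4 libraries. Pcdh11x, on the X chromosome, had no peak in any library although its body spans 620.4 kb. Only 3 of the 231 loci of at least 500 kb had no region (98.7% had one). On the X chromosome 40 of 117 loci of at least 100 kb had none, and X bodies held 8.04 regions per Mb.

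Delta-2 protocadherins, whose tails bind the WAVE actin regulators, had 16 regions at 5 loci. Their bodies, with a median of 57.2 kb, held 7.21 regions per Mb. Pcdh10 was the only one with common regions, 2, neither of them strong. One lay 80.8 kb upstream (folds 4.43 to 7.27). The other lay 0.908 kb upstream of the start, beside the printed promoter (chromosome 3, 45377104 to 45377877), with folds of 3.82 to 7.03 and a mean percentile of 39.8. Pcdh18 had a region 4.86 kb upstream (chromosome 3, 49761892 to 49762463) with folds of 5.55 and 11.3 in NfiA CD1 and Mixed, 12.4 and 21.03 in NfiB and 18.9 in NfiX Mixed. Pcdh19, the X-linked epilepsy gene, had one 21.9 kb upstream in the same 5 libraries (folds 6.55 to 13.6). Pcdh8 had 5 regions, all outside its short body, the best with folds of 5.72 to 10.6 in those 5. Pcdh17 had only weak peaks of both NfiB libraries at its start (folds 2.52 and 2.66).

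Among the other protocadherins, Pcdh15 had 13 regions in the longest body of the family, 1550.4 kb, or 8.38 per Mb (percentile 25.95 of long loci). Between neighbouring regions in it the widest gap was 486 kb. Of 46043 gaps over all regions 0.949% were as wide, and the median gap was 21.5 kb. Its common region in intron 2 (chromosome 10, 74008833 to 74009282) had folds of 8.25 and 21.7 in NfiA CD1 and Mixed, 19.6 and 21.3 in NfiB, and 12.4 and 26.5 in NfiX. For all 3 factors the Mixed fold was the higher one, the order described above under Pcdh7. Other best common regions, such as those of Cdh7 and Pcdh9, did not show it. Pcdh12, a protocadherin of endothelium, had a common region in intron 1 (chromosome 18, 38278636 to 38279015). Folds were 8.75 and 10.8 in NfiA CD1 and Mixed, 9.49 and 12.3 in NfiB, and 9.19 and 14.1 in NfiX. Pcdh20 had one 86.6 kb past its start, outside the gene (chromosome 14, 88384397 to 88385027). Folds there were 4.72 and 12.3 in NfiA CD1 and Mixed, 11.3 and 11.7 in NfiB, and 7.75 and 13.3 in NfiX. The bodies of these genes span only 17.3 and 6.65 kb.

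**Figure D4:**
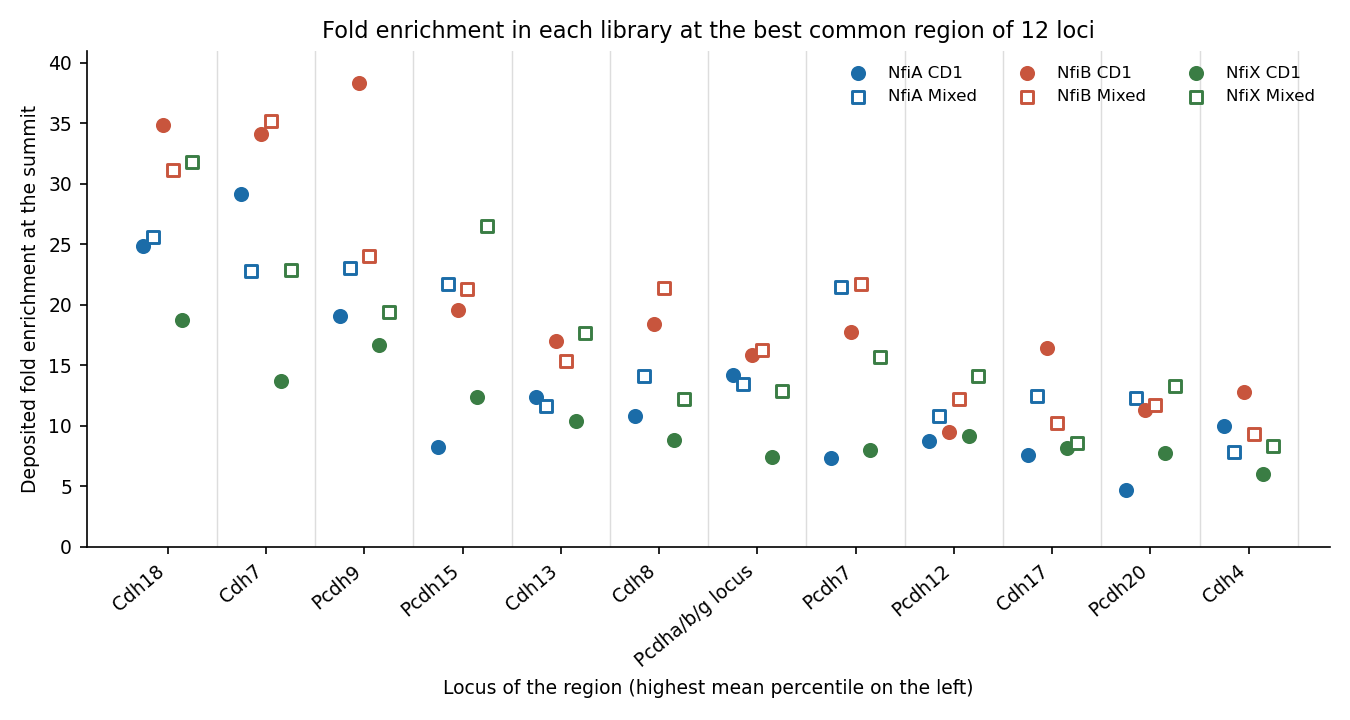
Deposited fold enrichment (linear axis from 0) in each of the 6 libraries at the best common region of 12 loci, ordered by mean percentile; filled circles are CD1 and open squares Mixed libraries. NfiX CD1 is lowest at 7 of the 12 and NfiA CD1 at the other 5.

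Folds of different lists depend on each library's depth, which is unknown here, so an order of libraries at 1 site is no comparison of factors. Over the 36 common regions, NfiX CD1 had the lowest fold at 22 (61.1%, against 65.0% of all common regions). The highest fold was in NfiB CD1 at 18 (50%, against 57.2%). NfiA CD1 was lowest at 9 (25.0%, against 12.04%). The members' median mean percentile was 80.1 and that of all common regions 75.7. Summits of the 6 libraries spanned a median of 56.5 bp at members and 62 bp over all common regions.

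The clustered protocadherins give each neuron its own surface code: each gene has a promoter and variable exon of its own, and shared exons follow the Pcdha and Pcdhg sets, while Pcdhb genes have a single exon. The locus (chromosome 18, 529.8 kb of merged bodies) had 12 regions, with 3 and 6 peaks in NfiA CD1 and Mixed, 9 and 10 in NfiB, and 2 and 4 in NfiX. Both common regions lay behind Pcdhac2, the last variable gene of the Pcdha set. That 7.10 kb past its start (37150397 to 37150812) had folds of 14.2 and 13.4 in NfiA CD1 and Mixed, 15.8 and 16.2 in NfiB, and 7.42 and 12.9 in NfiX. The other, 5.83 kb past it (37148996 to 37149668), had folds of 6.17 to 11.98. A region of 5 libraries lay between the sets, 47.5 kb before Pcdhb1 (folds 3.71 to 7.94).

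No region lay in the 259.5 kb that hold the 22 Pcdhb genes. Between neighbouring regions the gap across them was 588 kb, and 0.645% of all gaps were as wide. The Pcdhg span of 180.1 kb had 5 regions, all at its far end. They included the starts of the c-type genes Pcdhgc3 (4 libraries, folds 2.61 to 5.17) and Pcdhgc4 (3 libraries, folds 2.78 to 3.57). Another 2 regions farther on lie in Diaph1. Read-through genes (Gm37013, Gm37388 and Gm42416) cover most of the locus, so no region can be given to 1 gene. The Pcdhb genes and the variable exons are related in sequence, and how reads that match several places were treated is not given in the sources used here. Whether that affects the empty stretch was not tested.

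**Figure D5:**
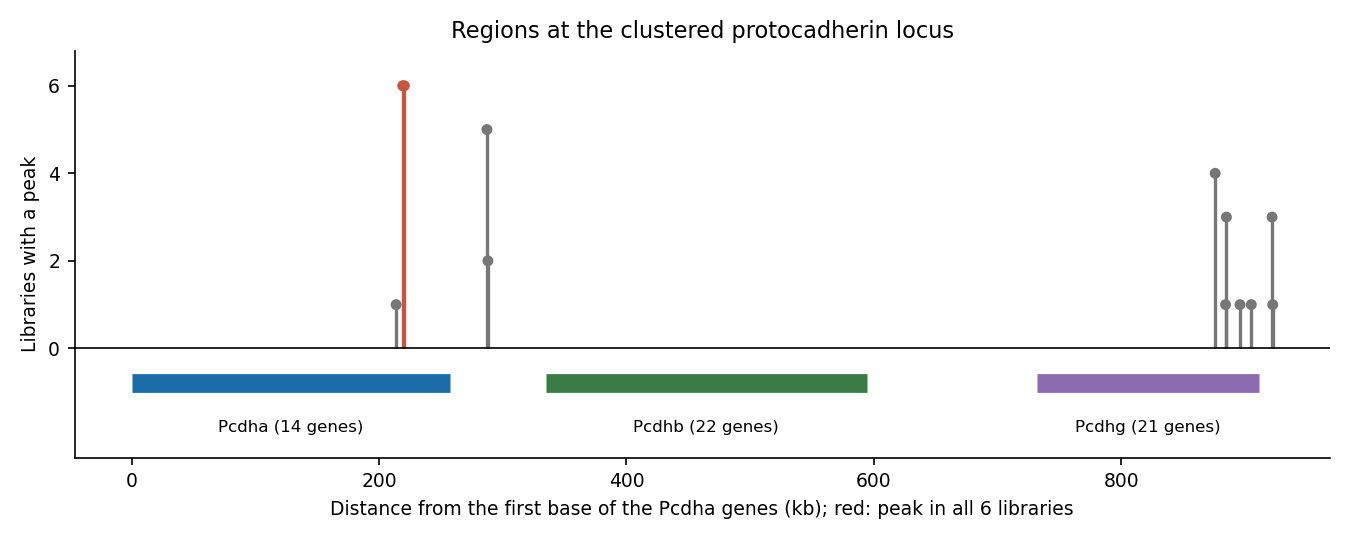
Regions at the clustered protocadherin locus by distance in kb from the first base of the Pcdha genes; height is the number of libraries with a peak, red marks all 6 (both common regions fall at nearly the same place), and coloured bars are the spans of the 14 Pcdha, 22 Pcdhb and 21 Pcdhg genes. The Pcdhb span has no region.

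Promoter peaks, with a summit within 1 kb of a protein-coding start, were found at 11 of the 35 loci (31.4%) in any library, against 15.5% of all loci. The clustered locus pools the starts of 57 genes. Per peak the order was the other way. A mean of 4.55% of member peaks and 5.44% of all peaks lay at promoters, with the member share lower in each of the 6 libraries. Both NfiB libraries had them at 8 (8.38% of all loci): Cdh7, Cdh8, Cdh10, Pcdh9, Pcdh10, Pcdh15, Pcdh17 and the clustered locus. Both NfiA libraries had them at Pcdh10 and Pcdh15 (2.58%), and both NfiX libraries only at Pcdh10 (0.749%). Pcdh10 was also the only locus with promoter peaks in all 6 libraries (0.667%). At Pcdh10 folds were 2.47 to 7.03 and at Pcdh15 3.21 to 5.46. The Pcdh15 start printed above lies 722 kb into the gene as annotated. Its summits were 97 and 52 bp before the start in NfiA CD1 and Mixed, 95 bp before it in NfiB CD1, 17 bp past it in NfiB Mixed and 7 bp before it in NfiX Mixed. The highest fold of a promoter peak was 12.7, at the Cdh7 start described above. A common region of Pcdh9 lay just outside the promoter limit, 1.05 kb past a start (chromosome 14, 93884423 to 93884963), with folds of 15.3 to 29.5. In the Cdh20 window NfiB CD1 alone had a peak (fold 4.10), with its summit 109 bp before the start.

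Member regions were more often far from any start than regions in general. Of the 299, 119 (39.8%) lay over 100 kb from every protein-coding start, against 32.9% of all regions. All 119 were inside member bodies, where the rule takes regions at any distance, so the rule itself shapes this share. The median distance was 81.3 kb against 46.3 kb over all regions. Counting only regions inside bodies, the share was 52.2% in member bodies of any length and 29.5% in all protein-coding bodies of at least 100 kb. The medians there were 107 and 52.2 kb. These sets differ in body length. Of the 19 long members, 7 spanned at least 500 kb, against 231 of all 2468 long loci. The reason for these differences was not tested. Introns of the reference transcripts held 199 regions. First introns held 54 of these (27.1%) and 24.9% of the intron length, so regions were not gathered there. Of the 36 common regions 0 overlapped an exon of a protein-coding transcript, which allows a share of up to 8.33%. Over all common regions the share was 5.69%.

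Neighbouring members on one chromosome differed. On chromosome 15, Cdh6, Cdh9, Cdh10, Cdh12 and Cdh18 lie within 10.4 Mb and had 45 regions, 4 of them common, at 15.0 per Mb of body. Chromosome 8 carries Cdh1, Cdh3, Cdh5, Cdh8, Cdh11, Cdh13, Cdh15 and Cdh16, with 75 regions and 9 common ones, at 34.2 per Mb. Of these 8 genes, 3 had no region, so the total rests mostly on Cdh13. On chromosome 14, Pcdh8, Pcdh9, Pcdh17 and Pcdh20 had 48 regions and 7 common ones.

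Partners of the cadherins were counted by the same rules. All 9 catenins and relatives had a region and 4 had a common one: Ctnna2, the neuronal alpha-catenin (47 regions, 8 common), Ctnnb1, beta-catenin (8 and 3), Ctnna3 (27 and 2) and Ctnnd2, delta-catenin (20 and 1). Of 17 other cadherin superfamily genes 13 had a region and 5 a common one: Clstn2, a calsyntenin of synapses (33 and 8), Fat3 (14 and 3), Fat2, an atypical cadherin of granule cells (7 and 2), Fat1 and Cdhr3. All 8 protocadherin partners had a region, and the kinases Ptk2 and Ptk2b (2 common each) and Fyn (1) had common ones, while the WAVE subunits Nckap1, Cyfip1, Cyfip2, Wasf1 and Abi1 had none. These shares stand beside 48.2% of all loci with any region and 13.1% with a common one. Among loci of at least 100 kb the shares were 89.7% and 45.7%. The 3 lists differ in gene length, with medians of 136, 59.1 and 110 kb.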

How the data were processed

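Peak lists from 6 ChIP-seq libraries were used. The submitters' processing notes name Bowtie2 2.2.6, SAMtools 1.4.1, MACS2 2.1.0 and mm10. The peak threshold is not given in the sources used here, nor are controls and read filters. Each library has 1 list deposited by the authors, none pooled, with a fold enrichment (ratio) at each summit. The deposited lists also hold −log10 p-values and q-values (highest q 0.0492) and an integer score, which was not used. Read depth is unknown. Folds describe and rank peaks within a list only, and percentiles are ranks of fold within a library.

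Peaks overlapping by at least 1 bp were merged (Python 3.11.15, pandas 2.3.3). Regions were assigned by midpoint, and single peaks by summit, using GENCODE M21. Assignment was tested on 200 made-up regions, 200 of which were placed rightly. No difference between groups was tested. Members, lists and the rule for named genes (every locus with a common region, the best common region of the 12 loci ranked highest by it, promoter peaks in both libraries of a factor, loci with no peak) were chosen with earlier results of these data known. The gene left out is not reported here. No genome sequence was used, so distal peaks have no printed sequence. In all, 15 alternatives were planned.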

Additional observations from a re-analysis of the deposited data

How the results depend on the processing

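Of 83 values computed under other settings, 71 kept their direction and stayed within the limits set for a shift. With as many peaks from every list as the shortest holds (7497), 11 members had a common region (8.06% of all loci did), with 23 common regions among 81. Cdh5, Cdh12, Cdh20, Pcdh10, Pcdh12 and Pcdh20 no longer had one, the median percentile of fold was 61.9, and the log2 density ratio turned to 0.14. With the nearest start within 100 kb alone there were 172 regions, 18 of them common. With gene bodies alone the share of peaks was 0.467% and the median percentile 54.5. With promoters taken as 5 kb, 19 members had a promoter peak. Leaving out 1 library gave 17 to 24 members with a common region, 36 to 68 common regions and 252 to 297 regions, and the highest of the common counts came without NfiX CD1. It gave a share of 0.610 to 0.631%, a median percentile of 50.1 to 51.5 and a log2 density ratio of −0.055 to 0.0085, above 0 only without NfiA Mixed. The causes were not tested. No paired analysis was possible because no result comes from a test between groups. The factors share the CD1 and Mixed backgrounds, and this pairing was not used.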
